A study of Sus scrofa with 6 samples.

Results

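The circadian clock genes CLOCK, PER1, PER2, PER3, CRY1, CRY2, NR1D1, NR1D2, DBP and BHLHE41 were followed in the longissimus thoracis (LT) and semitendinosus (ST) muscles of 3 Min pigs. The genes were taken by symbol from the Ensembl annotation of Sscrofa11.1, which matched 9 of the 10 among 20288 protein-coding genes. All 9 had more than 0.1 FPKM in at least 1 library, as had 13994 of the 20288 genes. PER3 was matched by no symbol, and the gene ID at its RefSeq position is described beside the 9 but not counted with them. LT is a back muscle and ST a hindlimb muscle of the same animals, and the study set them side by side because they differ in meat quality and in the fat between their fibres. Min pigs are a local breed from China. The animals were of the same age and are labelled wild type, and the labels name no treatment. Their sex and the hour at which the muscles were taken are not given in the sources used here. Each muscle was sequenced once per pig from RNA depleted of rRNA, so that there were 6 libraries, 3 of each muscle.

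The molecular clock runs in most cells of the body, muscle fibres included, as a feedback loop of transcription. CLOCK pairs with BMAL1 on E-box elements and switches on the period (PER) and cryptochrome (CRY) genes, whose proteins return to the nucleus and hold CLOCK and BMAL1 back. A further loop joins the nuclear receptors NR1D1 and NR1D2 (REV-ERB alpha and beta), which repress BMAL1, to the ROR receptors, which activate it. DBP is an output factor on D-box elements, and BHLHE41 (DEC2) competes for E-boxes as a repressor. In muscle, the transcripts of most of these genes rise and fall over the day, and the clock is known for its hold on glucose uptake, the choice of fuel and protein turnover.

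The levels below are FPKM, which relates the fragments assigned to a transcript to its length and to the mapped total of its library, added up over the transcripts of a gene. The files give no fragment counts, so the depth behind a single value is unknown and no counting interval was computed. ST replicate 2 stood apart from the other ST libraries. The summed level of 7 slow-fibre genes was 6036 to 8335 FPKM in LT and up to 40123 in ST, but 6201 in ST replicate 2. TNNT3, the fast skeletal troponin T, was at 8127, 7992 and 5185 FPKM in LT and at 1046, 4518 and 161 in ST. On the log2 scale, ST replicate 2 correlated with the LT libraries at 0.922 to 0.941 and with the other ST libraries at 0.926 and 0.916, whereas ST replicates 1 and 3 correlated at 0.957. The differences of the clock genes are therefore also given without this library. That fit keeps LT replicate 2, so pig 2 then counts in LT only. Of 7 slow-fibre and 7 fast-fibre genes 0 were called between the muscles, where 0.715% of all genes were. Under the pig block 3 slow genes (MYL3, ATP2A2 and TNNT1, all higher in ST) and 0 fast genes were called, against 5.05%. With ST replicate 2 left out, 6 slow and 6 fast genes were called, against 5.65%. That library was set apart by genes of these same lists, so the last counts are no separate result on the fibre types. Of 8 skeletal muscle defining genes 0 were called, 1 under the block (PYGM, lower in ST) and 4 without ST replicate 2. These 8 summed to 20179 to 26515 FPKM in LT and 9990 to 20131 in ST, and none was listed at 0 in every library. As drawn up, this list shares TNNC2, TNNT3 and ATP2A1 with the fast-fibre list. Its counts and sums therefore partly repeat those of the fast-fibre genes and are not read as a difference in muscle content.

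Among the 9 genes, PER1, PER2 and CLOCK had the largest fold changes between the muscles, while in FPKM the means of NR1D2 lay furthest apart. PER1 was higher in ST in every pig, with no overlap between the muscles, and PER2 was higher in ST in every pig with overlapping ranges. CLOCK, the activator of both, was lower in ST in pigs 1 and 3, at 0.587 and 0.364 times the LT level, and at 1.07 times in pig 2. In limma on log2(FPKM + 0.1), with p-values adjusted over all 13994 genes, a gene was called when the adjusted p was below 0.05 and the log2 fold change exceeded 1 in size. Without the pig as a block, none of the 9 genes was called, where 0.715% of all genes were, 0.543% higher and 0.172% lower in ST. At an unadjusted p under 0.05, 1 of the 9 passed (PER1), against 20.7% of all genes. With the pig as a block, PER1 alone of the 9 was called and rose in ST, where 5.05% of all genes were called, 3.72% higher and 1.33% lower. At an unadjusted p under 0.05 under the block, PER1, PER2 and NR1D2 were higher and CLOCK lower, against 27.5% of all genes, 20.5% higher and 7.05% lower. Without ST replicate 2, CLOCK alone of the 9 was called and fell in ST, where 5.65% of the 13897 genes tested were called, 3.87% higher and 1.78% lower. Leaving out an ST library with LT-like fibre genes favours calls between the muscles. It gave 785 genes, against 11 to 17 on leaving out any other library. With 9 genes the counts among them are not read as a result on the clock genes as a group. The median log2 fold change of the 9 genes was 0.32, beside 0.17 over all genes tested.

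**Figure D1:**
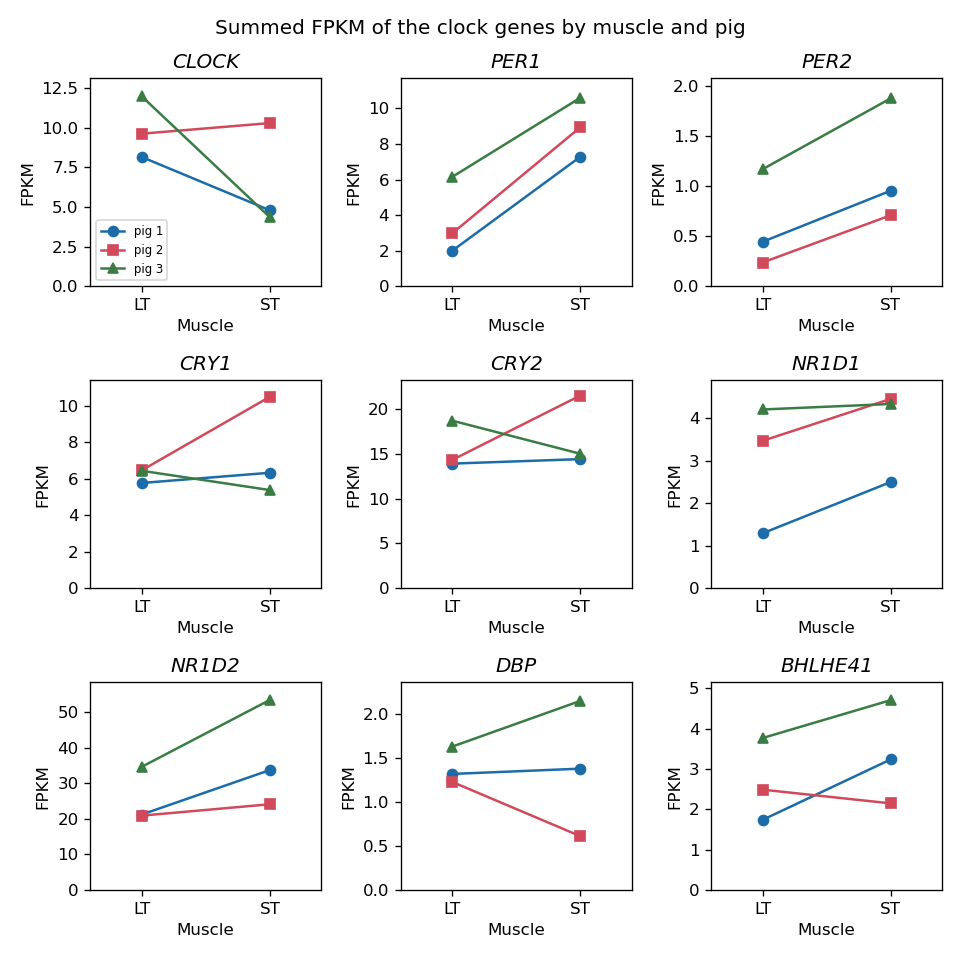
FPKM summed over transcripts (vertical axes, each starting at 0) of the 9 clock genes in LT and ST, with a line for each of the 3 pigs. PER1, PER2, NR1D1 and NR1D2 ran upwards from LT to ST in all 3 pigs, while the lines of CLOCK, CRY1, CRY2, DBP and BHLHE41 ran in different directions.

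CLOCK (ENSSSCG00000008909, chromosome 8, 54788864 to 54910146, minus strand) is the positive arm of the loop. Its level was 8.16, 9.63 and 12.0 FPKM in LT replicates 1 to 3 and 4.79, 10.3 and 4.35 FPKM in ST replicates 1 to 3. ST replicates 1 and 3 lay below all LT libraries, and ST replicate 2 lay among them. The mean was 9.91 ± 1.92 FPKM (SD, n = 3) in LT and 6.48 ± 3.31 FPKM (SD, n = 3) in ST. ST differed from LT by a log2 fold change of -0.70 (SE 0.33, 95% interval -1.47 to 0.08), with an adjusted p of 0.286. The pig block gave an adjusted p of 0.179. Without ST replicate 2 the log2 fold change was -1.08 with an adjusted p of 0.0336, and with pig 2 left out under the block it was -1.10 with an adjusted p of 0.0408. The call for CLOCK thus rested on whether the library with LT-like fibre genes was kept.

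BMAL1 is the partner of CLOCK. Its level was 4.48, 7.30 and 3.85 FPKM in LT and 4.82, 9.77 and 1.56 in ST. Pig 2 had the highest and pig 3 the lowest level in both muscles, and the ranges overlapped. Its log2 fold change was -0.24 (SE 0.59, adjusted p = 0.853), and its sign turned in 3 of the settings tried, at 0.02 with the highest transcript only, 0.02 without LT replicate 2 and 0.45 without ST replicate 3. Without ST replicate 2 it was -0.84 (adjusted p = 0.319), beside -1.08 for CLOCK, and both genes had their lowest level in ST replicate 3. With pig 2 left out under the block, BMAL1 was at -0.57 (adjusted p = 0.329), beside -1.10 for CLOCK. Whether BMAL1 and CLOCK differ in this was not tested. The ratio of CLOCK to BMAL1 was 0.994 to 3.11 over the 6 libraries. NPAS2, a relative of CLOCK that can take its place, was low, at 0.235 to 0.299 FPKM in LT and 0.167 to 0.542 FPKM in ST. BMAL2, a relative of BMAL1, was at 0.199 to 0.621 FPKM in LT and 0.180 to 0.490 in ST.

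PER1 (ENSSSCG00000017983, chromosome 12, 53361868 to 53376611, minus strand) encodes a repressor of CLOCK and BMAL1 and is itself known to be induced quickly by cAMP and by glucocorticoids. Its level was 1.98, 2.96 and 6.14 FPKM in LT and 7.28, 8.94 and 10.6 FPKM in ST. The highest LT library lay below the lowest ST library, and the order of the pigs was the same in both muscles. Within pigs 1, 2 and 3, ST exceeded LT by 3.67, 3.02 and 1.73 times. The mean was 3.69 ± 2.17 FPKM (SD, n = 3) in LT and 8.94 ± 1.66 FPKM (SD, n = 3) in ST. The log2 fold change was 1.39 (SE 0.38, 95% interval 0.50 to 2.28) with an adjusted p of 0.104 in limma. The 2-sided exact permutation test, which took the libraries as unpaired, gave p = 0.1, the smallest that 3 against 3 libraries allow. With the pig as a block the SE was 0.23 and the adjusted p 0.0297. Without ST replicate 2 the log2 fold change was 1.38 and the adjusted p 0.112. Across the 20 alternatives PER1 stayed higher in ST, from 0.92 to 1.83 on the log2 scale, with adjusted p from 0.0297 to 0.401. Several of these, such as the filters and the block on all libraries, leave the fold change as it is and could not turn its sign. Groups without overlap were found in 26.6% of all genes tested, and in 1 of the 9 clock genes.

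PER2 (ENSSSCG00000016338, chromosome 15, 137793419 to 137837236, minus strand), the other period gene found by symbol, was the lowest of the 9 genes. Its level was 0.443, 0.236 and 1.17 FPKM in LT and 0.955, 0.709 and 1.88 in ST. Pig 3 was highest and pig 2 lowest in each muscle, so that the LT value of pig 3 lay above the ST values of pigs 1 and 2. Within pigs ST exceeded LT by 2.15, 3.0 and 1.61 times. This made a log2 fold change of 0.96 (SE 0.53, 95% interval -0.27 to 2.18, adjusted p = 0.348), and with the pig block the SE was 0.23 and the adjusted p 0.0595. The value was 1.23 without ST replicate 2 (adjusted p = 0.227), a fit that keeps the low LT value of pig 2. With pig 2 left out of both muscles under the block it was 0.80 (adjusted p = 0.111).

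The gene ID ENSSSCG00000028572 carries no symbol and lies on chromosome 6 from 68488263 to 68534004, inside the span that RefSeq gives for PER3 on the same build (68487634 to 68548718). Its level was 0.754, 0.404 and 1.24 FPKM in LT and 1.24, 0.477 and 1.71 in ST. The pigs kept the order seen for PER2 in both muscles, and the log2 fold change was 0.43 (SE 0.50, adjusted p = 0.673), or 0.90 without ST replicate 2 (adjusted p = 0.231). With pig 2 left out under the block it was 0.54 (adjusted p = 0.222).

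The cryptochromes differed little between the muscles. CRY1 was at 5.77, 6.46 and 6.44 FPKM in LT and 6.33, 10.5 and 5.38 in ST. CRY2 was at 13.9, 14.3 and 18.7 FPKM in LT and 14.4, 21.5 and 15 in ST. In both genes ST replicate 2 was the highest of the 6 libraries, and the other ST libraries lay within or beside the LT range. The log2 fold change was 0.19 for CRY1 (95% interval -0.41 to 0.78, adjusted p = 0.719) and 0.11 for CRY2 (95% interval -0.39 to 0.61, adjusted p = 0.818), and both signs turned with quantile normalization and without ST replicate 2 (-0.09 and -0.08). CRY2 exceeded CRY1 in every library, by 2.05 to 2.91 times, the narrowest range of the ratios computed between clock genes.

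NR1D1 and NR1D2, the repressors of BMAL1, were higher in ST in each of the 3 pigs. NR1D2 was at 21.2, 20.9 and 34.6 FPKM in LT and 33.7, 24.1 and 53.4 in ST, with overlapping ranges and the highest value of each muscle in pig 3. Its log2 fold change was 0.50 (SE 0.32, adjusted p = 0.424), and 0.50 with an SE of 0.16 and an adjusted p of 0.112 under the pig block. It was 0.77 without ST replicate 2 (adjusted p = 0.164). NR1D1 was at 1.29, 3.47 and 4.21 FPKM in LT and 2.5, 4.46 and 4.34 in ST, so that pig 1 was lowest in both muscles. For NR1D1 the log2 fold change was 0.43 (SE 0.44, adjusted p = 0.622), and it was -0.07 without LT replicate 1 and 0.29 without ST replicate 2. NR1D1 overlaps THRA, the thyroid hormone receptor alpha gene, on the opposite strand. The library kit keeps strand, but whether strand was used in assigning fragments is not given in the sources used here. NR1D2 exceeded NR1D1 by 5.40 to 16.4 times.

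DBP and BHLHE41 showed no direction shared by the pigs. DBP was at 1.32, 1.23 and 1.63 FPKM in LT and 1.38, 0.613 and 2.15 in ST, where pig 2 was lowest and pig 3 highest. For DBP the log2 fold change was -0.16 (SE 0.41, adjusted p = 0.863), and 0.29 without ST replicate 2. BHLHE41 was at 1.74, 2.49 and 3.77 FPKM in LT and 3.24, 2.15 and 4.71 in ST, and its log2 fold change was 0.32 (SE 0.36, adjusted p = 0.651), or 0.60 without ST replicate 2 (adjusted p = 0.319). Of the 9 genes, 4 were higher in ST in all 3 pigs (PER1, PER2, NR1D1, NR1D2) and 0 were lower in all 3, where 36.6% of all genes tested were higher and 14.2% lower.

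**Figure D2:**
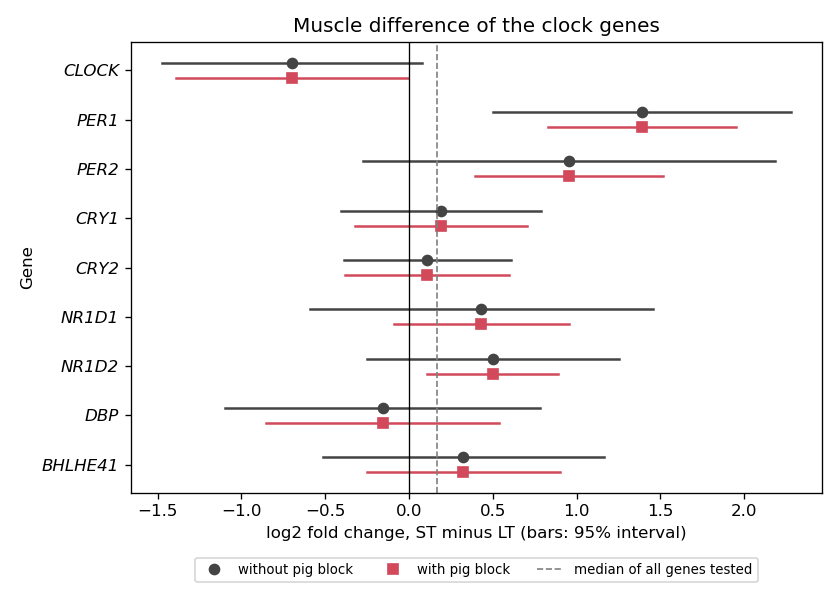
Log2 fold change of ST against LT (horizontal axis, above 0 when higher in ST) of the 9 clock genes from limma, with 95% intervals, without the pig block (circles) and with it (squares). The dashed line is the median of all 13994 genes tested, 0.17, and the intervals of PER1 lie above it in both fits.

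By mean level over the 6 libraries, the order was NR1D2 (31.3 FPKM), CRY2 (16.3), CLOCK (8.20), CRY1 (6.81), PER1 (6.32), NR1D1 (3.38), BHLHE41 (3.02), DBP (1.39) and PER2 (0.898). The order mixed activators with repressors. Between neighbours, the ranges over the 6 libraries overlapped in every case but CRY2 and CLOCK, where the lowest CRY2 library (13.9 FPKM) lay above the highest CLOCK library (12.0 FPKM). PER1 and CLOCK exchanged places between the muscles, and PER1 stood to CLOCK at a ratio of 0.243, 0.307 and 0.513 in LT and 1.52, 0.868 and 2.43 in ST. This ratio did not overlap between the muscles, and no test was made of it.

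The pig took a larger share of the variation than the muscle in 7 of the 9 genes, and the muscle the larger share in PER1 and CLOCK. How many of all genes have the larger share in the pig is not given here, so this count is not read as a trait of the clock genes. The sum of squares of log2(FPKM + 0.1) over the 6 libraries was split into pig, muscle and rest. With 2 degrees of freedom for the pig, 1 for the muscle and 2 for the rest, a gene without any effect would on average give 40% to the pig and 20% to the muscle. The pig share had a median of 64.5% over the 9 genes and 39.0% over all genes tested, and 6 of the 9 lay above the latter. The muscle share had a median of 12.5% over the 9 genes and 28.0% over all genes. The SD over the libraries had a median of 0.55 on the log2 scale, against 0.37 over all genes. NR1D1 had the largest pig share of the 9, at 79.0%, and PER1 (26.2%) and CLOCK (25.8%) the smallest. PER1 was the gene with the largest muscle share, at 66.9%, followed by CLOCK at 41.1%. The pig share holds whatever differed between the animals, and individual, hour of sampling and handling cannot be told apart with 3 pigs. The order of the 3 pigs was the same in LT and ST for PER1, PER2, NR1D2 and DBP, thus in 4 of the 9 genes, and in 27.1% of all genes tested.

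**Figure D3:**
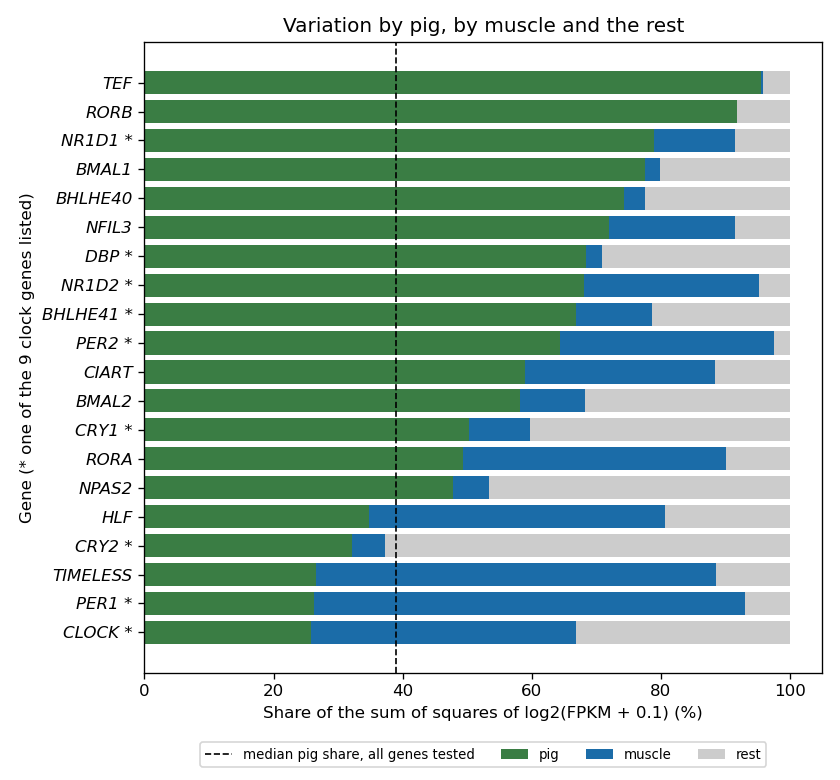
Share of the sum of squares of log2(FPKM + 0.1) over the 6 libraries (horizontal axis, %) that fell to the pig, to the muscle and to the rest, for the 9 clock genes (marked *) and 11 other genes of the loop. The dashed line is the median pig share of all genes tested, 39.0%, which 6 of the 9 marked genes exceed.

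A further 11 genes of the loop were taken as a list. None was called in the comparison of ST with LT with or without the pig block, where 5.05% and 0.715% of all genes were. Without ST replicate 2 RORA was called and fell, where 5.65% of all genes were called. RORA, a ROR receptor, was at 13.3, 29.1 and 24.4 FPKM in LT and 6.44, 21.4 and 7.33 in ST. Each pig had less of it in ST than in LT, with overlapping ranges. Its log2 fold change was -1.07 (SE 0.48, adjusted p = 0.261), with an adjusted p of 0.0536 under the pig block, and -1.61 with an adjusted p of 0.0383 without ST replicate 2. With pig 2 left out under the block, RORA was at -1.38 (adjusted p = 0.0212) and was called. RORB was at 0.033 to 0.177 FPKM in all libraries, near the filter. Thus RORA, like CLOCK and the fibre-type genes, had in ST replicate 2 a value in or near the LT range.

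Among the repressors, BHLHE40 was at 21.9, 24.5 and 15.9 FPKM in LT and 14.9, 36.4 and 9.99 in ST, with pig 2 highest and pig 3 lowest in both muscles, as for BMAL1. Its log2 fold change was -0.22, and -0.74 without ST replicate 2 (adjusted p = 0.821 and 0.134). CIART, a repressor of CLOCK and BMAL1, was at 2.88, 4.67 and 8.33 FPKM in LT and 4.29, 15.4 and 11.4 in ST. Each pig had more of it in ST than in LT, at a log2 fold change of 0.91 (SE 0.52, adjusted p = 0.366), or 0.53 without ST replicate 2 (adjusted p = 0.568). For CIART the pig block gave an adjusted p of 0.0910. TIMELESS was at 0.407 to 0.541 FPKM in LT and 0.199 to 0.365 in ST, with no overlap (log2 fold change -0.55, adjusted p = 0.307).

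Of the other D-box factors, TEF and NFIL3 differed more by pig and HLF more by muscle. TEF, a relative of DBP, was at 2.78, 1.85 and 6.08 FPKM in LT and 2.93, 1.46 and 9.04 in ST, and its pig share of 95.5% was the largest of all clock genes examined. NFIL3, which represses through the same D-box elements, was at 6.45, 6.05 and 1.15 FPKM in LT and 7.64, 10.1 and 3.78 in ST. It was higher in ST in each pig, at a log2 fold change of 0.87 (SE 0.65, adjusted p = 0.491). The adjusted p was 0.105 under the pig block, and 0.662 without ST replicate 2 (0.57). Pig 3 thus had the highest TEF and the lowest NFIL3 in both muscles, and the ratio of TEF to NFIL3 was 5.28 in LT and 2.39 in ST of pig 3, against 0.145 to 0.432 in the other 4 libraries. HLF, also of this family, had a muscle share of 45.9% and a pig share of 34.8%, and was at 3.43 to 4.96 FPKM in LT and 3.07 to 3.29 in ST, with no overlap (log2 fold change -0.30, adjusted p = 0.432).

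The position of pigs 2 and 3 was then counted over the 9 and the 11 genes. Pig 3 was highest in both muscles for 7 of the 20 genes (PER1, PER2, NR1D2, DBP, BHLHE41, TEF and TIMELESS), against 20.4% of all genes tested, and lowest in both for 3 (BMAL1, BHLHE40 and NFIL3), against 11.5%. Pig 2 was highest in both muscles for 6 (CRY1, BMAL1, NPAS2, RORA, BHLHE40 and HLF), against 8.46%, and lowest in both for 6 (PER2, NR1D2, DBP, BMAL2, RORB and TEF), against 26.6%. CLOCK, CRY2, NR1D1 and CIART were in none of these groups, so the pattern was not shared by the whole loop. NR1D2 stood to BMAL1 at a ratio of 4.73, 2.86 and 8.97 in LT and 6.99, 2.46 and 34.2 in ST. PER2 stood to BMAL1 at 0.0989, 0.0323 and 0.303 in LT and 0.198, 0.0726 and 1.20 in ST. Both ratios were lowest in pig 2 and highest in pig 3 in each muscle. The counts were made after all values were known, the pigs are 3, and no test was made of this pattern.

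**Figure D4:**
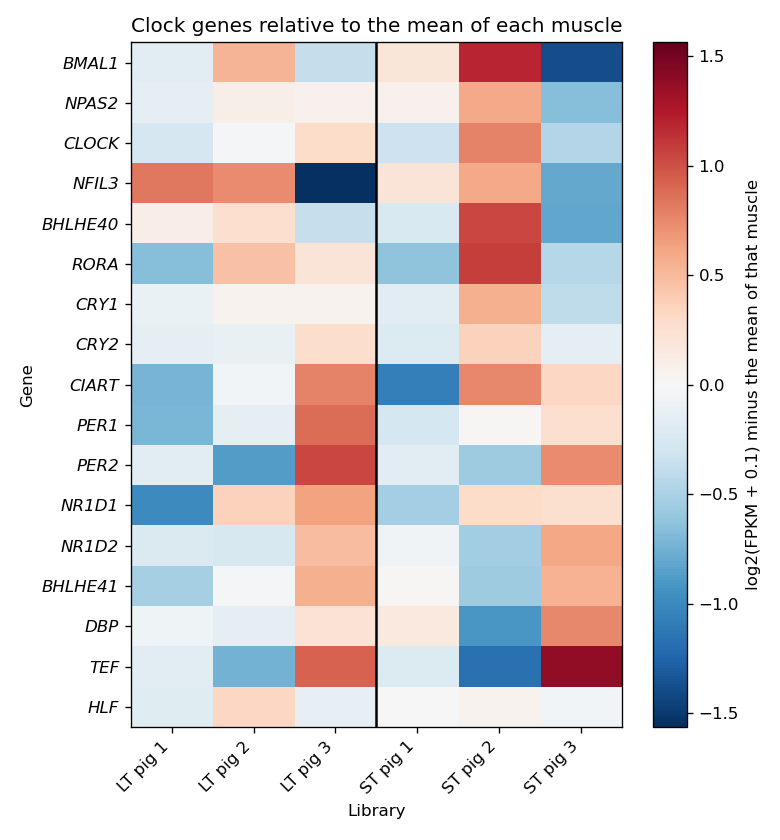
Level of 17 clock genes in each library, as log2(FPKM + 0.1) minus the mean of the same gene over the 3 libraries of that muscle (red above, blue below). In pig 3, BMAL1, NFIL3 and BHLHE40 lay below and PER2, NR1D2, DBP and TEF above the muscle mean in both LT and ST, and pig 2 showed the opposite for these 7 genes.

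The sums of several clock genes came from more than 1 transcript. The 9 genes had 20 annotated transcripts, of which 18 passed the FPKM filter and 0 were called over all 52102 transcripts tested, where 0.146% were. At an unadjusted p under 0.05 the count was 1, against 9.69% of all transcripts. This was ENSSSCT00000053441 of PER1, with 23 exons, at 0.88, 0.968 and 1.97 FPKM in LT and 4.46, 4.51 and 5.51 in ST. Its log2 fold change was 1.92 (SE 0.35, adjusted p = 0.192), and its ranges did not overlap. ENSSSCT00000032848, the other main PER1 transcript, with 24 exons, was at 1.10, 1.99 and 3.95 FPKM in LT and 2.83, 4.43 and 5.08 in ST, with overlapping ranges and a log2 fold change of 0.92 (SE 0.49, adjusted p = 0.597). The 2 transcripts span much of the same locus, and whether their changes differ was not tested.

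For CLOCK, NR1D2 and BHLHE41, the level moved between transcripts of the gene from library to library. Of the 4 CLOCK transcripts, ENSSSCT00000048111 was at 8.60 FPKM in LT replicate 3, 71.9% of the gene, and at 0.215 to 2.06 FPKM in the other 5 libraries. ENSSSCT00000048864, the CLOCK transcript with the highest mean, had a log2 fold change of -0.21 (SE 0.44). NR1D2 was carried by ENSSSCT00000025072 at 21.1 and 20.9 FPKM in LT replicates 1 and 2 and 33.6, 23.6 and 53.4 FPKM in ST, but that transcript was listed at 0 in LT replicate 3, where ENSSSCT00000061287 was at 34.6 FPKM. The latter was between 0.015 and 0.483 FPKM in the other 5 libraries. BHLHE41 was carried by ENSSSCT00000056533 in LT replicate 2 and ST replicates 2 and 3 (2.48, 2.14 and 4.68 FPKM) and by ENSSSCT00000076919 in LT replicates 1 and 3 and ST replicate 1 (1.74, 3.77 and 3.02 FPKM). FPKM is scaled to length, so sums depend little on this assignment where the transcripts are of like length. This held for NR1D2 (5032 and 5091 bases) and for the BHLHE41 transcripts named (4715 and 4641 bases). The CLOCK transcripts are 4064 to 7947 bases long, so the sums of CLOCK can depend on it, which was not tested. Single transcripts of these genes are uncertain.

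**Figure D5:**
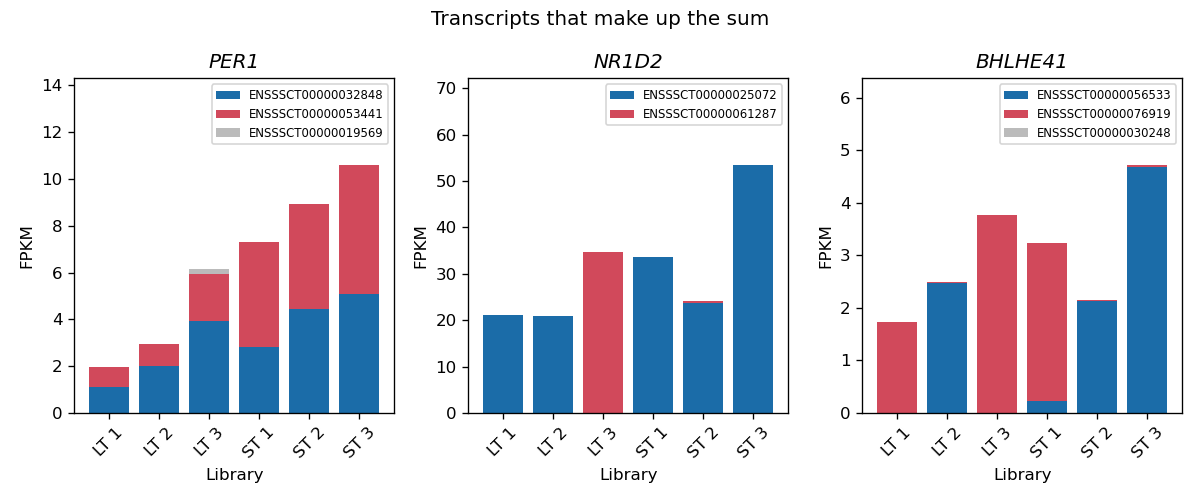
FPKM (vertical axes from 0) of the annotated transcripts of PER1, NR1D2 and BHLHE41, stacked to the sum of the gene in each of the 6 libraries. Both main PER1 transcripts contributed in all libraries, whereas NR1D2 in LT replicate 3 and BHLHE41 in LT replicate 1, LT replicate 3 and ST replicate 1 were assigned to another transcript than in the other libraries.

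Transcripts without annotation lay on the opposite strand at 8 of the 9 loci, 7 classed as lncRNAs and 6 as mRNAs. Of these 13, 0 were called, where 0.146% of all transcripts were. At an unadjusted p under 0.05, 2 of them passed, against 9.69% of all transcripts. LNC_010509, opposite CLOCK on chromosome 8 from 54826353 to 54910231 with 9 exons, was at 0.618, 1.63 and 1.01 FPKM in LT and 0.324, 0.111 and 0.545 in ST (log2 fold change -1.52, SE 0.54, adjusted p = 0.463). LNC_010510, of the same assembled gene, was listed at 0 in 5 libraries and at 1.05 FPKM in ST replicate 2, where LNC_010509 was lowest, so the low value there may rest on the assignment between them. Novel_001425, opposite PER1 on chromosome 12 from 53361483 to 53375053 with 23 exons, was at 0.137, 0.237 and 0.195 FPKM in LT and 0.558, 0.637 and 0.365 in ST (log2 fold change 1.09, SE 0.36, adjusted p = 0.439). Since the use of strand in the counting is not given, fragments of the gene and of its opposite transcript may not have been told apart.

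The genes whose pattern over the 6 libraries was most like that of PER1, among 8931 genes outside the lists with a mean above 1 FPKM, were GABBR1 (Pearson r = 0.995), JMY (0.993) and SYNJ1 (0.989). For CLOCK they were MLXIP (0.995), BLTP2 (0.990) and RAD23B (0.987). MLXIP was at 9.23, 11.2 and 14.0 FPKM in LT and 4.07, 12.7 and 4.15 in ST, again with ST replicate 2 in the LT range. These are the highest of many correlations over 6 libraries that share muscle and pig, and they are given as a description.

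Genes for the turnover and modification of clock proteins were also read. These 22 were mostly kinases, phosphatases and factors that add or remove ubiquitin, with SIRT1, NONO and SFPQ. Of them 0 were called with or without the pig block, where 5.05% and 0.715% of all genes were. Their median log2 fold change was 0.17. DDB1 (0.49), FBXL17 (-0.44), SKP1 (-0.52) and CSNK1E (0.42), a kinase of the PER proteins, had the smallest p-values, with adjusted p of 0.174, 0.224, 0.283 and 0.296.

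Of 19 genes known to follow the clock in muscle, 0 were called without the pig block, and 7 had an unadjusted p under 0.05 with a higher and 1 with a lower level in ST, where 15.2% and 5.43% of all genes had. WEE1, a cell cycle kinase under E-box control, was at 1.67, 1.58 and 1.30 FPKM in LT and 3.31, 6.35 and 3.62 in ST, with a log2 fold change of 1.43 (SE 0.28, adjusted p = 0.0624) and an adjusted p of 0.0291 under the pig block. COQ10B (0.92), HK2 (0.79), the hexokinase of muscle, and TCAP (1.4), the titin cap protein of the Z-disc, had adjusted p of 0.103, 0.119 and 0.146. The list had a median log2 fold change of 0.52. Without ST replicate 2, WEE1 rose (1.14, adjusted p = 0.0287) and NAMPT, the rate-limiting enzyme of NAD salvage, fell (-1.77, adjusted p = 0.0289). In that fit 5.65% of all genes were called, against 5.05% under the pig block and 0.715% without it.

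PER1 is also a target of glucocorticoid and cAMP signals, so genes of those responses were read beside it. Over all genes, 0.715% were called without the block, 5.05% with it and 5.65% without ST replicate 2. Of 13 glucocorticoid-responsive genes 0 were called, and under the pig block NFKBIA, the inhibitor of NF-kappa-B, rose (1.29, adjusted p = 0.0394). That call was lost without ST replicate 2 (1.05, adjusted p = 0.0576) and with the block and pig 2 left out (1.07, adjusted p = 0.0681). FKBP5, a textbook target of the glucocorticoid receptor, was at 3.44, 25.9 and 28.1 FPKM in LT and 3.62, 25.3 and 17.4 in ST, low in both muscles of pig 1 and with a pig share of 97.6%. It was chosen for mention after its values were seen. ZBTB16 (0.74), DDIT4 (-0.78) and PDK4 (2.38) had adjusted p of 0.126, 0.187 and 0.278. Of 11 immediate early genes 0 were called, and under the pig block NR4A2 (1.15, adjusted p = 0.0281) and SIK1 (1.64, adjusted p = 0.0277) rose in ST. Without ST replicate 2, NR4A2 was called (1.04, adjusted p = 0.0332), SIK1 was not (1.30, adjusted p = 0.111) and DDIT4, an inhibitor of mTORC1 signalling, fell (-1.08, adjusted p = 0.0394). ATF3, a stress-response factor, was at 9.62 to 21.1 FPKM in LT and 32.5, 414 and 41.3 in ST, with its highest level in ST replicate 2 (log2 fold change 2.52, adjusted p = 0.163, and 1.36 without that library, adjusted p = 0.0562).

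Markers of other cells also differed between the muscles. In these bulk samples, more or fewer cells of a type and more or less RNA per cell cannot be told apart. Of 9 endothelial markers 3 were higher in ST past the call (PECAM1, CDH5 and ESAM), against 0.543% of all genes. Under the pig block 4 were called higher, against 3.72%. The 9 summed to 72.8 to 102 FPKM in LT and 157 to 226 in ST with no overlap, where 26.6% of single genes had none. The 8 adipocyte markers had a median log2 fold change of -0.82, with ADIPOQ at -0.92 and PLIN1 at -1.11 (adjusted p = 0.410 and 0.321), while 1 was called higher (LPL, a lipase also made by muscle fibres). At an unadjusted p under 0.05, 2 of the 8 were higher and 1 lower in ST, with neither ADIPOQ nor PLIN1 among them. Under the pig block 2 were called higher, and 2 without ST replicate 2, against 3.72% and 3.87% of all genes. The list thus had no common direction. The sums of the 8 were 141 to 246 FPKM in LT and 232 to 327 in ST, which overlapped. Of 12 immune markers 0 were called, with sums of 60.8 to 63.5 FPKM in LT and 68.2 to 89.0 in ST, which did not. None of 8 fibroblast, 5 nerve and 5 red blood cell markers was called, and their sums overlapped between the muscles. No marker found was listed at 0 in every library. The part of these markers and of the fibre types in the levels of the clock genes was not tested.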

How the data were processed

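LT and ST muscles of 3 Min pigs gave 6 libraries. The authors depleted rRNA, aligned reads to the pig genome (Sscrofa11.1) by HISAT2 and built transcripts by StringTie. The deposited values are FPKM of each transcript, with 1 file per library. These values are scaled to length and library, fragment counts were not used here, and the depth behind single values is unknown.

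FPKM was summed over the 72511 transcripts by gene ID, and the 20288 genes with a protein-coding transcript were kept. Genes above 0.1 FPKM in at least 1 library were compared on the scale log2(FPKM + 0.1), ST minus LT, by limma 3.58.1 (R 4.3.3) with a trend of the variance and without a block, as the study's methods name none. This fit does not use the pairing of LT and ST within a pig. Genes were called at a Benjamini-Hochberg adjusted p under 0.05 over all genes with a log2 fold change past 1 in either direction. Single genes were also compared with exact permutation tests, which did not use the pairing by pig either. The fit was tested on simulated data. Fold changes on this scale understate those of low genes. Plots and sums were made in Python 3.11.15 with pandas 2.3.3.

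LT and ST libraries of the same number came from the same pig, by the study's description and the number in the sample names. Their deviations from the muscle means correlated at 0.342, 0.345 and 0.348 over 9963 genes, against -0.268 to -0.128 between different pigs. The deviations of a gene cancel out within each muscle, so positive values within pigs push those between pigs to negative ones. The values between pigs are therefore no independent contrast. On the pairing that the study describes, the fit with the pig as a block is given where it changed a call and for further clock genes. Replicates are separate animals.

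The named genes were the listed clock genes, 11 other genes of the loop, up to 4 genes with the smallest p of each further list (turnover, clock-controlled, glucocorticoid-responsive, immediate early, and markers of muscle, fibre types and other cells), and the 3 genes most like PER1 and CLOCK. The members and lists were chosen with earlier results of these data known. Some genes, such as FKBP5, ADIPOQ and NAMPT, were named outside the rule of the smallest p. PER3 was matched by position. One item of the lists is not reported here. Of the alternatives, 16 were planned and 4, all with the pig block, were added after the data were seen. The deposited tables' other columns were used only for identity.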

Additional observations from a re-analysis of the deposited data

How the results depend on the processing

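The number of genes called, 100 in the fit reported (76 higher and 24 lower in ST), was 706 with the replicate block (520 and 186), 11 with no filter on FPKM, 26 without the variance trend, 45 with the highest transcript only, 50 with quantile normalization (28 and 22) and 62 with median-of-ratios rescaling (38 and 24). Both scalings moved the median log2 fold change of all genes from 0.17 to -0.01 and 0.03, so the differences of the clock genes are to be read against that shift. Leaving out 1 library gave 11 to 785 genes, with 785 without ST replicate 2 and 11 to 17 without any of the other 5, and 0 to 1 of the clock genes (CLOCK, without ST replicate 2). With the block, the number was 355 at a pseudocount of 1, 314 with quantile normalization, 350 with median-of-ratios rescaling and 1038 without replicate 2. The clock genes called, 0 in the fit reported, were 1 with the replicate block, 1 with the block and a pseudocount of 1 or median-of-ratios rescaling (PER1 in each), and 2 with the block and without replicate 2 (PER1 and CLOCK). With the block and quantile normalization PER1 was at 1.19 with an adjusted p of 0.0513. With every library kept, the block changed no other call among the 9 genes and the 11 other genes of the loop. With the block and without replicate 2, RORA was also called (-1.38, adjusted p = 0.0212).

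CLOCK stayed lower and PER1, PER2, NR1D2 and BHLHE41 stayed higher in ST in all alternatives that gave a value. The filters, the variance trend and the block on all libraries do not alter the fold change of a gene. Those alternatives, and the one with annotated transcripts only, could not turn a sign and do not count as agreement. With the highest transcript only, CLOCK was at -0.21 (adjusted p = 0.834), and NR1D2 reached 3.30 and BHLHE41 2.35, since their level moves between transcripts. Among values never called, the log2 fold change changed sign for CRY1 (-0.00365 with quantile normalization, with and without the block, -0.0627 with the block and without replicate 2, and -0.0902 to 0.386 on leaving out 1 library), CRY2 (-0.00238 and -0.0429 with quantile normalization and median-of-ratios rescaling, with and without the block, -0.133 with the block and without replicate 2, and -0.0757 to 0.243 on leaving out 1 library), TEF (-0.113 and -0.0401 under the same scalings, and -0.584 to 0.69 on leaving out 1 library), DBP (0.214 with the block and without replicate 2, and -0.535 to 0.293), NPAS2 (-0.0661 with the block and without replicate 2, and -0.115 to 0.519), NR1D1 (-0.0674 to 0.748), BMAL1 (0.0195 with the highest transcript only, and -0.84 to 0.445), BHLHE40 (-0.739 to 0.189) and RORB (0.0858 at a pseudocount of 0.01, 0.0387 with the highest transcript only, and -0.205 to 0.341), where each range is over the 6 fits that left out 1 library. The cause was not tested. Keeping annotated transcripts only left the sums as they were, since unannotated transcripts carry gene IDs of their own, and the filter of 1 FPKM in at least 3 libraries left out PER2, BMAL2, NPAS2, RORB and TIMELESS. The files give no depth, so how firmly low values such as those of PER2 stand could not be computed.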
